A study of Caenorhabditis elegans with 12 samples.

Results

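The first days of adult life were followed in *glp-4(bn2)* worms by comparing the mRNA of whole animals on day 3 of adulthood with that on day 1. The comparison rests on 4 of the 12 samples of the series, 2 on day 3 and 2 on day 1, chosen by their labelled strain and age and not by any measured value. The *bn2* allele is temperature-sensitive, and at the restrictive temperature homozygous *C. elegans* form hardly any germ cells, which leaves mostly somatic RNA. Animals of both ages carried this allele, were synchronized as first-stage larvae, and received 50 µM FUDR, a drug that blocks production of progeny, when they were moved to 20 °C as late fourth-stage (L4) larvae. The study's methods give 25 °C as the temperature before that shift, while the labels give 15 °C. Each sample held at least 80 worms, and because whole animals were extracted, fewer cells of a type and less RNA per cell cannot be told apart. Of the other groups of the series, *glp-4(bn2)* animals on day 7 (2 samples) give levels and also enter the fit behind the p-values. There they bear on which genes are tested, on the scaling and on the estimated spread. The *eri-1(mg366)* worms at day 1 (3 samples), called WT in the study, are used for levels. Beyond that they enter only an alternative fit of all 12 samples. The *eri-1* strain has a germline and differs from *glp-4(bn2)* in genotype and culture.

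A nematode's outer coat, the cuticle, is built almost entirely of collagens that the underlying epidermis makes in a burst at each larval moult and at the last moult into the adult. In young adults the intestine takes on the mass production of yolk proteins, the vitellogenins, which are normally delivered to oocytes. Worms also carry large families of secreted defence proteins, among them lysozymes, saposin-like caenopores and C-type lectins, and large families of enzymes that modify foreign and endogenous small molecules.

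Total estimated counts were 9037955 and 7889153 in the day 3 samples and 10407141 and 12836836 in the day 1 samples. The rank order of genes was close within an age, with Spearman's rho of 0.988 for day 3 and 0.987 for day 1. Levels agreed less well on day 1, where chi-square per degree of freedom came to 20.5, against 7.32 on day 3. In the day 1 samples, furrow and body-shape collagens summed to 5069 and 2816 TPM, and vitellogenins to 8357 and 13680 TPM. Cytosolic ribosomal proteins differed little there, with 203637 and 193275 TPM. The 50 most abundant genes took 36.5% and 33.4% of the counts at day 3, against 23.1% and 26.02% at day 1. The *glp-4* gene itself, which encodes valyl-tRNA synthetase and carries the point mutation in every sample compared, had 104.1 and 89.2 TPM at day 3 and 149 and 191 TPM at day 1 (log2 fold change -0.90 ± 0.12, SE; adjusted p = 2.22e-05). TPM is a level per transcript length that has an equal sum in every sample. Fold changes, their standard errors and adjusted p-values come from a fit on the counts (edgeR's quasi-likelihood test, Benjamini-Hochberg adjustment over all genes tested), so they differ slightly from the ratio of TPM values. The libraries do not keep strand, so reads of genes that overlap a gene on the other strand cannot be assigned with certainty, which applies to 17 of the 91 genes named here, *col-92*, *col-93*, *vit-2*, *perm-2* and *tbh-1* among them. The TPM values of the ages did not overlap for any gene given with values below except *col-181* and *mtl-2*. Nothing in the labels ties samples to separate cultures, so the p-values measure the spread between samples only.

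Day 3 and day 1 animals differed in most of the genes that could be tested. Of 13222 genes, 3515 were higher (26.6%) and 3636 were lower (27.5%) at day 3 with an adjusted p under 0.05, which together made 54.1%. Both samples of one age lay outside the range of the other for 76.3% of the genes. With 2 samples per age such separation is frequent for unchanged genes too, so this is not the share of genes that differ. A change of at least 4-fold was called for 991 genes upward (7.5%) and 873 downward (6.6%). At least 16-fold changes were fewer upward (245 genes) than downward (398 genes). Over all tested genes the median log2 fold change was 0.00, which the scaling between libraries largely fixes. It is no measure of a change in total mRNA. These shares are the background against which the families below are read. The plot of calls by family shows a selection of the families, some far from this background and some near it.

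**Figure D1:**
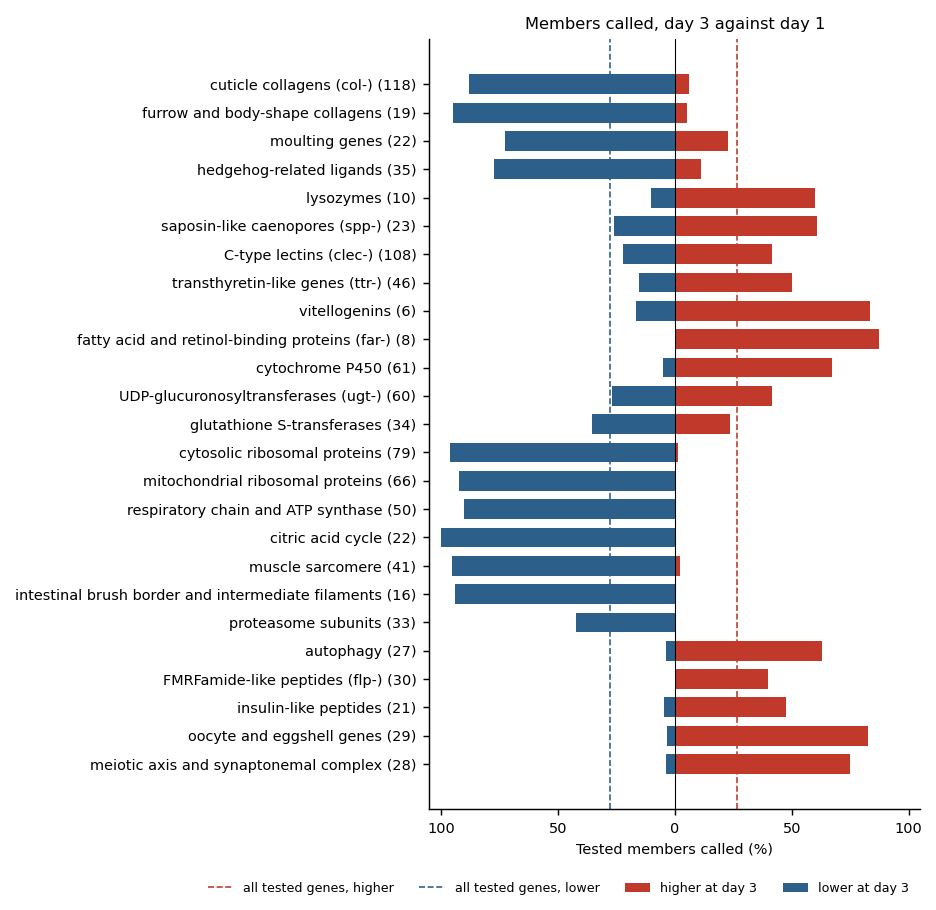
Share of the tested members of each gene list that were called lower (blue bars, to the left) and higher (red bars, to the right) at day 3 than at day 1, in percent, with the number tested in parentheses and dashed lines for all tested genes (27.5% lower and 26.6% higher). Cuticle collagens, ribosomal proteins, citric acid cycle and sarcomere genes lie almost wholly to the left, and far- genes, vitellogenins and oocyte genes to the right.

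Most cuticle collagens fell steeply. The filter on low counts left 118 *col-* genes and removed 38. Of those tested 88.1% were lower, 7 genes were higher and 7 were not called. Their median log2 fold change was -6.46 (-6.37 with 3 genes that had no counts in one age placed at their bound), and 96 of them fell at least 4-fold. Put together, the *col-* genes took 2.53% and 2.36% of all TPM at day 3, against 8.73% and 10.3% at day 1. In *eri-1* animals on day 1 they took between 5.42% and 5.61%. At day 7 of the *glp-4* animals the summed level was lower still, between 4303 and 4710 TPM, against 25287 and 23628 TPM at day 3. The 10 falling genes with the smallest adjusted p were all *col-* genes. The gene with the lowest of all was *col-92* (WBGene00000667; WBcel235 chromosome III, 10982139 to 10983253), with 5.44 and 4.61 TPM at day 3, against 3647 and 4212 TPM at day 1 (log2 fold change -9.73 ± 0.17, SE; adjusted p = 8.66e-14). Its neighbour *col-93*, which starts at 10984552, had 40.1 and 48.4 TPM at day 3 and 4248 and 5476 TPM at day 1 (-6.88 ± 0.17; adjusted p = 1.35e-12).

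Other collagens that were abundant at day 1 were at a small fraction of that level at day 3. *col-146* had 0.763 and 0.824 TPM at day 3, against 864 and 870 TPM at day 1, which is 5 counts in each day 3 sample (log2 fold change -10.14 ± 0.22; adjusted p = 3.95e-13). *col-39* had 2.94 and 2.61 TPM at day 3 and 1235 and 1558 TPM at day 1 (-9.07 ± 0.21; adjusted p = 8.91e-13). *col-159* had 23.1 and 26.9 TPM at day 3 and 3595 and 4722 TPM at day 1 (-7.48 ± 0.18; adjusted p = 1.19e-12). *col-156* had no counts in either day 3 sample, against 92.99 and 43.4 TPM at day 1, which makes it at least 161-fold lower on a floor of 3 counts per library. Without day 1 replicate 1 the fitted log2 fold change of *col-156* was -11.29, against -11.99 with all samples, values that depend on the prior count because 1 age is at 0.

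A few collagens did not follow. *col-181*, the most abundant of the family over both ages, had 4585 and 4336 TPM at day 3 and 3064 and 4390 TPM at day 1, and the ages overlapped (log2 fold change 0.16 ± 0.15; adjusted p = 0.400). Without day 1 replicate 1 its log2 fold change was -0.08 and without day 1 replicate 2 it was 0.43 with an adjusted p of 0.00218. *col-183* had 188 and 170 TPM at day 3, against 0.204 and 0.440 TPM at day 1, where these stand for 2 and 5 counts (8.91 ± 0.27; adjusted p = 6.43e-12). Without day 1 replicate 2 the log2 fold change of *col-183* was 9.55.

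Collagens that set the annular furrows and the body shape, known from Dumpy and Roller mutants, fell together: 18 of 19 tested were lower, each at least 4-fold, and 1 was higher, with a median log2 fold change of -7.98. This median is -7.02 with the 3 members that were at 0 counts in one age placed at their bound. *dpy-4*, the most abundant of them, had 1.602 and 2.72 TPM at day 3, against 1285 and 714 TPM at day 1 (-8.95 ± 0.33; adjusted p = 3.88e-11). The furrow collagen *dpy-7* had no counts at day 3, against 22.5 and 21.7 TPM at day 1, at least 62.9-fold lower. *sqt-3*, a collagen needed for normal body shape, had 11.08 and 8.51 TPM at day 3 and 507 and 247 TPM at day 1 (-5.28 ± 0.27; adjusted p = 1.00e-09). The exception was *dpy-17*, with 10.3 and 8.92 TPM at day 3 and 3.33 and 2.36 TPM at day 1 (1.66 ± 0.27; adjusted p = 0.000125).

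Genes of the moulting programme fell with the collagens. Of 22 tested, 16 were lower and 5 higher, with a median log2 fold change of -2.88. *lin-42*, the worm homologue of the clock gene Period, whose transcript cycles with the moults, had 0.993 and 0.450 TPM at day 3, against 206 and 132 TPM at day 1 (-8.58 ± 0.30; adjusted p = 2.22e-11). *mlt-11*, which encodes a protease inhibitor-like protein required for moulting, had 0.933 and 0.917 TPM at day 3 and 70.9 and 46.3 TPM at day 1 (-6.15 ± 0.21; adjusted p = 2.29e-11). The kinase gene *nekl-2*, also needed for moulting, went the other way, with 63.7 and 74.8 TPM at day 3 and 11.3 and 11.6 TPM at day 1 (2.49 ± 0.14; adjusted p = 2.60e-09). In *eri-1* animals on day 1, *lin-42* was at 4.03 ± 0.367 TPM and *mlt-11* at 0.668 ± 0.181 TPM (SD, n = 3), so the day 1 *glp-4* animals lay far above WT animals of the same labelled age. The same held for *dpy-4*, at 1.04 ± 0.158 TPM in *eri-1* animals, while *col-93*, at 2669 ± 86.7 TPM, was abundant there. Whether the day 1 *glp-4* animals were closer to the last moult than the WT animals was not tested.

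**Figure D2:**
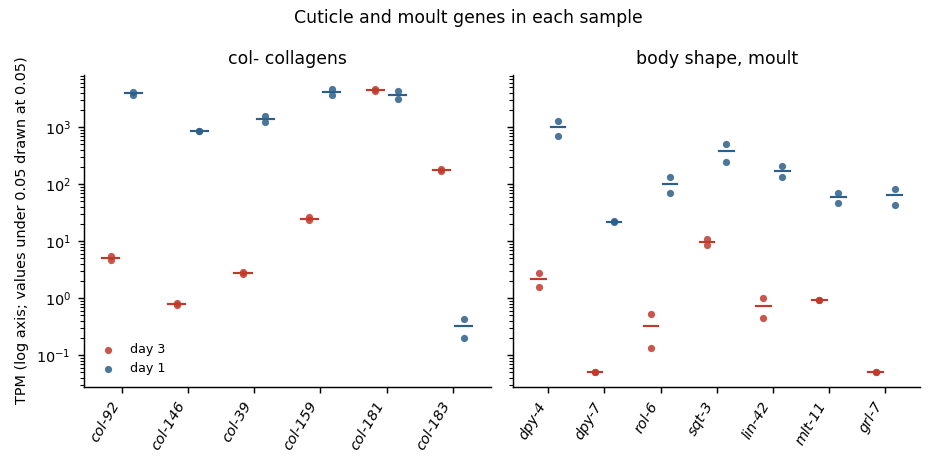
TPM (log axis) of cuticle collagens (left) and of body-shape collagens, lin-42, mlt-11 and grl-7 (right) in each sample, day 3 in red and day 1 in blue, with bars for the mean of 2 samples; values under 0.05 are drawn at 0.05. Day 3 samples lie below day 1 samples for all genes shown except col-181, where they overlap, and col-183, where they lie above.

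Secreted proteins related to hedgehog, many of which are made in the epidermis around moults, behaved likewise: 27 of 35 tested were lower and 4 higher, with a median of -4.14. *grl-7* had no counts at day 3, against 83.6 and 43.9 TPM at day 1, at least 185-fold lower. *grd-5*, the most abundant, fell less, with 337 and 382 TPM at day 3 and 709 and 465 TPM at day 1 (-0.84 ± 0.16; adjusted p = 0.000608). Proteins of the precuticle and the zona pellucida domain family that line the cuticle's surfaces were lower in 9 of 10 cases, and none rose. One of these, *noah-1*, had 8.50 and 6.37 TPM at day 3 and 64.8 and 45.8 TPM at day 1 (-2.98 ± 0.17; adjusted p = 3.27e-09). The precuticle list shares this and other genes with the moulting list, which also overlaps the hedgehog-related list, so these counts are not separate. In the *abu* and *pqn* genes, which encode proteins with glutamine- and asparagine-rich or cysteine-rich repeats, 27 of 58 were lower and 10 higher.

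The 10 rising genes with the smallest adjusted p came from several families. At the top stood *clx-1* (WBGene00000551; chromosome IV, 7734648 to 7736324), with 725 and 742 TPM at day 3, against 1.03 and 0.832 TPM at day 1 (log2 fold change 9.52 ± 0.17, SE; adjusted p = 8.66e-14). *F56D6.8*, a gene without a given name on chromosome IV, had 3763 and 4293 TPM at day 3 and 4.25 and 5.25 TPM at day 1 (9.56 ± 0.20; adjusted p = 2.99e-13). *dct-8*, which lies near it, had 1797 and 2177 TPM at day 3 and 1.75 and 2.67 TPM at day 1 (9.62 ± 0.22; adjusted p = 7.25e-13). These genes were near the detection limit at day 1 and well expressed in both day 3 samples. In *eri-1* animals on day 1 they were low as well, at 0.218 ± 0.0879 TPM for *clx-1*, 2.55 ± 0.469 TPM for *F56D6.8* and 2.50 ± 1.15 TPM for *dct-8* (SD, n = 3). *comt-4*, which encodes a catechol O-methyltransferase-like enzyme, had 396 and 327 TPM at day 3 and 2.46 and 1.75 TPM at day 1 (7.31 ± 0.18; adjusted p = 1.35e-12).

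Defence proteins were among the largest gains. Of 10 lysozyme genes that could be tested (of 16), 6 were higher and 1 was lower, and together the lysozymes took 1.501% and 1.62% of TPM at day 3, against 0.27% and 0.30% at day 1. Most of the day 3 share was *lys-7* (WBGene00003096; chromosome V, 3481432 to 3482600), a lysozyme of the intestine, with 11045 and 12429 TPM at day 3 and 80.4 and 107 TPM at day 1 (6.86 ± 0.17; adjusted p = 1.35e-12). *lys-4* fell, with 54.04 and 62.8 TPM at day 3 and 100 and 84.2 TPM at day 1 (-0.77 ± 0.15; adjusted p = 0.000635). Among the saposin-like caenopores, pore-forming peptides that act on bacteria, 14 of 23 were higher and 6 lower. *spp-9* had 781 and 803 TPM at day 3, against 1.44 and 1.66 TPM at day 1, where these stand for 3 and 4 counts (8.79 ± 0.21; adjusted p = 9.70e-13). *spp-5*, already abundant at day 1, had 7181 and 8180 TPM at day 3 and 4354 and 4015 TPM at day 1 (0.74 ± 0.11; adjusted p = 5.26e-05).

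C-type lectins, a family of sugar-binding proteins, moved in both directions, with 45 of 108 tested higher and 24 lower and a median of 0.38. The most abundant, *clec-63*, fell, with 2107 and 1860 TPM at day 3 and 3460 and 3143 TPM at day 1 (-0.84 ± 0.11; adjusted p = 2.14e-05). The small antimicrobial peptides of the epidermis, with 19 of 40 higher and 17 lower, likewise had no common direction as a whole, but differed by subfamily. Of the *cnc-* genes 7 of 9 were higher and none lower, with a median log2 fold change of 3.45. Of the *fipr-* genes 12 of 18 were lower and 4 higher, with a median of -2.01. *cnc-6*, a caenacin, had 101 and 114.2 TPM at day 3, and 0.331 and 0 TPM at day 1 (1 count in all), too few for a fold change. *nlp-29*, which the epidermis induces on wounding and fungal infection, had 390 and 444 TPM at day 3 and 169 and 144 TPM at day 1 (1.28 ± 0.14; adjusted p = 2.98e-06). Other peptides fell, among them *fipr-21*, with 386 and 428 TPM at day 3 and 1718 and 1914 TPM at day 1 (-2.29 ± 0.12; adjusted p = 1.10e-09). The list thus held both strong gains and strong losses. *abf-2*, an antibacterial factor of the defensin-like kind, had 2319 and 2742 TPM at day 3 and 31.8 and 28.2 TPM at day 1 (6.27 ± 0.17; adjusted p = 1.71e-12). Of the *pals* genes, a family induced by intracellular pathogens, 12 of 27 were higher and 3 lower. *pals-6* had 27.1 and 32.9 TPM at day 3 and 4.94 and 3.69 TPM at day 1 (2.71 ± 0.20; adjusted p = 3.64e-08). Transthyretin-like secreted proteins rose in 23 of 46 cases and fell in 7. *ttr-51*, the most abundant, had 3913 and 4255 TPM at day 3 and 387 and 420 TPM at day 1 (3.21 ± 0.12; adjusted p = 2.94e-11).

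Yolk was the other large gain. Of the 6 vitellogenin genes, 5 were higher and 1 was lower. Their summed share was 5.04% and 3.80% of TPM at day 3, against 0.84% and 1.37% at day 1. *vit-5* (chromosome X, 3403471 to 3408603) had 17994 and 13166 TPM at day 3 and 1054 and 1942 TPM at day 1 (3.29 ± 0.24; adjusted p = 3.67e-08). *vit-2* had 13574 and 10762 TPM at day 3 and 2825 and 4261 TPM at day 1 (1.69 ± 0.18; adjusted p = 1.72e-06). *vit-1*, with 520 and 388 TPM at day 3 and 522 and 945 TPM at day 1, fell (-0.78 ± 0.20; adjusted p = 0.00488), although the higher day 3 sample nearly reached the lower day 1 sample. Without day 3 replicate 2 the call for *vit-1* was lost (log2 fold change -0.62; adjusted p = 0.106). In *eri-1* animals on day 1, *vit-5* was at 4304 ± 198 TPM and *vit-2* at 5625 ± 270 TPM (SD, n = 3), between the *glp-4* ages.

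Among genes of lipid binding, 1 family was higher at day 3 and another was mixed. The *far-* genes, whose products bind fatty acids and retinol and are secreted, rose in 7 of 8 cases and fell in none. *far-2* had 20689 and 21248 TPM at day 3 and 7426 and 8462 TPM at day 1 (1.28 ± 0.12; adjusted p = 3.81e-07), making it the most abundant of the family. *far-3* had 1717 and 1709 TPM at day 3 and 77.3 and 63.3 TPM at day 1 (4.49 ± 0.13; adjusted p = 4.19e-12). The lipid-binding proteins of the *lbp-* family were higher in 3 of 9 cases and lower in 3, with a median log2 fold change of -0.28. The fatty acid desaturases, which place double bonds in fatty acids, moved in opposite directions: together with the elongases 6 of 14 were higher and 8 lower, and 6 higher and 4 lower where at least a 2-fold change was also required. *fat-5*, a palmitoyl-CoA desaturase, had 564 and 490 TPM at day 3 and 16.6 and 16.9 TPM at day 1 (4.87 ± 0.13; adjusted p = 1.71e-12). *fat-2*, a desaturase of the polyunsaturated fatty acid pathway, had 5014 and 4860 TPM at day 3 and 670 and 668 TPM at day 1 (2.78 ± 0.11; adjusted p = 6.44e-11). *fat-6*, a stearoyl-CoA desaturase, had 1954 and 1931 TPM at day 3 and 519 and 523 TPM at day 1 (1.76 ± 0.11; adjusted p = 4.78e-09). All 3 of these desaturases were several-fold more abundant in both day 3 samples. *fat-7*, a close homologue of *fat-6*, lay at the other end, with 1.77 and 1.44 TPM at day 3 and 5.40 and 4.23 TPM at day 1 (-1.67 ± 0.38; adjusted p = 0.00178). Fatty acid activation and beta-oxidation genes were split, with 15 of 56 higher and 24 lower. The lipase-like gene *lips-11* had 60.6 and 66.1 TPM at day 3, against no counts at day 1, and was at least 160-fold higher.

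Among enzymes of small-molecule metabolism, cytochrome P450 genes were mostly higher at day 3. Of 61 cytochrome P450 genes tested, 41 were higher and 3 lower, with a median of 1.29. The most abundant, *cyp-14A5*, had 241 and 223 TPM at day 3 and 19.99 and 20.99 TPM at day 1 (3.40 ± 0.13; adjusted p = 4.53e-11). *cyp-33C1* had 2.43 and 3.06 TPM at day 3, against no counts at day 1, and was at least 15.9-fold higher. The UDP-glucuronosyltransferases, which attach sugars to lipophilic molecules, were mixed, with 25 of 60 higher and 16 lower, and glutathione S-transferases leaned to neither side, with 8 of 34 higher and 12 lower. *gst-28* had 7.88 and 4.77 TPM at day 3 and 99.1 and 95.8 TPM at day 1 (-4.09 ± 0.19; adjusted p = 3.37e-10). Of 31 genes for metallothioneins, ferritins and metal transporters, 10 were higher and 3 lower. The metal-binding *mtl-1* had 2258 and 2703 TPM at day 3 and 64.4 and 50.4 TPM at day 1 (5.31 ± 0.16; adjusted p = 6.43e-12). The iron store *ftn-1* had 258 and 254 TPM at day 3 and 25.4 and 16.97 TPM at day 1 (3.48 ± 0.16; adjusted p = 3.96e-10). *mtl-2*, the other metallothionein, had 171 and 212 TPM at day 3 and 232 and 201 TPM at day 1 and was not called (-0.31 ± 0.15; adjusted p = 0.105).

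**Figure D3:**
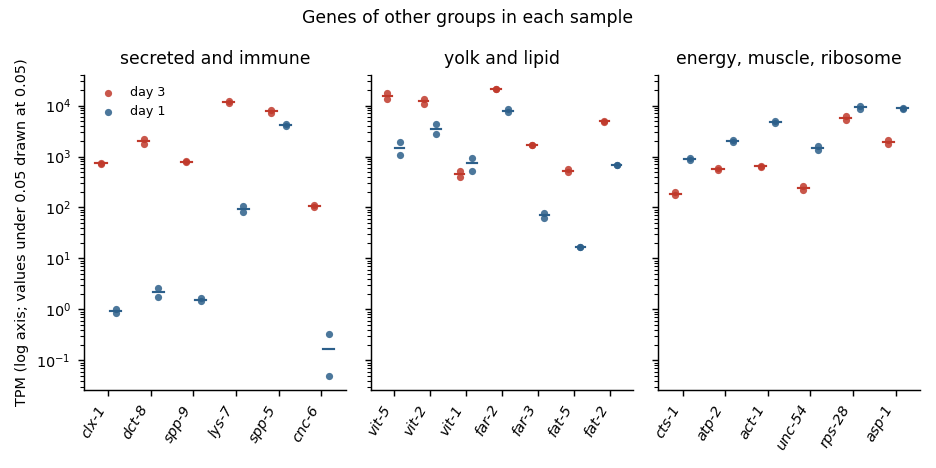
TPM (log axis) in each sample for secreted and immune genes (left), yolk and lipid genes (middle) and genes of energy metabolism, muscle, the ribosome and the lysosome (right), day 3 in red and day 1 in blue, with bars for the mean of 2 samples; values under 0.05 are drawn at 0.05. The day 3 samples lie above day 1 on the left and, except for vit-1, in the middle, and below day 1 on the right.

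Genes of energy metabolism were mostly lower at day 3. All 22 citric acid cycle genes were lower, with a median of -0.94, and of 50 genes of the respiratory chain and ATP synthase 45 were lower and none higher, with a median of -1.29. *cts-1*, citrate synthase, had 203 and 173 TPM at day 3 and 846 and 951 TPM at day 1 (-2.35 ± 0.12; adjusted p = 6.96e-10). *idh-1*, an isocitrate dehydrogenase, had 60.2 and 59.0 TPM at day 3 and 337 and 430 TPM at day 1 (-2.77 ± 0.13; adjusted p = 3.50e-10). The ATP synthase subunit *atp-2* had 601 and 537 TPM at day 3 and 1956 and 2071 TPM at day 1 (-1.92 ± 0.11; adjusted p = 2.31e-09). Glycolysis genes were lower in 11 of 18 cases and higher in none. Genes of gluconeogenesis, the glyoxylate cycle and trehalose synthesis were an exception, with 8 of 14 higher and 1 lower. *pck-1*, a phosphoenolpyruvate carboxykinase, had 353 and 312 TPM at day 3 and 57.6 and 73.2 TPM at day 1 (2.25 ± 0.12; adjusted p = 1.98e-09).

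Translation genes fell in the same way. Of 79 cytosolic ribosomal protein genes 76 were lower and 1 higher, with a median of -0.90, and these genes took 11.6% and 12.03% of TPM at day 3, against 20.4% and 19.3% at day 1. *rps-28*, the most abundant, had 5166 and 6355 TPM at day 3 and 9941 and 8611 TPM at day 1 (-0.82 ± 0.12; adjusted p = 6.71e-05). The exception was *rpl-11.1*, with 83.2 and 82.2 TPM at day 3 and 23.4 and 23.8 TPM at day 1 (1.69 ± 0.13; adjusted p = 6.33e-08). In *eri-1* animals, which have a germline, it was at 2709 ± 58.7 TPM (SD, n = 3). Mitochondrial ribosomal proteins were lower in 61 of 66 cases and higher in none, with a median of -1.39. Translation factors were lower in 22 of 41 cases and higher in 3, and aminoacyl-tRNA synthetases were lower in 16 of 31 and higher in 3. Genes of the nucleolus were lower in 21 of 28 cases and higher in 2, and splicing factors were lower in 23 of 45 and higher in 1. In the scan of all 177 symbol prefixes with at least 8 tested genes, the highest shares of lower genes were at *ndub* and *rsp*, all 8 of 8 each, followed by *rps* with 30 of 31. No cytosolic ribosomal protein gene changed at least 4-fold.

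Several genes of one-carbon metabolism and of the breakdown of short-chain acids fell far. *acdh-1*, an acyl-CoA dehydrogenase that responds to dietary vitamin B12 and propionate, had 29.7 and 32.03 TPM at day 3 and 535 and 520 TPM at day 1 (-4.19 ± 0.12; adjusted p = 4.19e-12). The propionate and B12 list, *acdh-1* included, had 3 of 16 higher and 8 lower. Among the higher was *mmcm-1*, methylmalonyl-CoA mutase, with 118 and 102 TPM at day 3 and 51.4 and 58.6 TPM at day 1 (0.91 ± 0.11; adjusted p = 7.07e-06). Among genes for S-adenosylmethionine and phosphatidylcholine synthesis 11 of 16 were lower and 2 higher. *sams-1*, which makes S-adenosylmethionine, the methyl donor of the cell, had 81.6 and 74.5 TPM at day 3 and 512 and 539 TPM at day 1 (-2.85 ± 0.11; adjusted p = 4.81e-11), and *ahcy-1*, S-adenosylhomocysteine hydrolase, had 288 and 256 TPM at day 3 and 1019 and 1098 TPM at day 1 (-2.06 ± 0.11; adjusted p = 9.45e-10). *pmt-1*, a phosphoethanolamine methyltransferase, went up, with 690 and 695 TPM at day 3 and 364 and 370 TPM at day 1 (0.78 ± 0.10; adjusted p = 1.10e-05).

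Genes that keep proteins in shape and clear them did not move as a block. Chaperones of the cytosol and the chaperonin were lower in 12 of 17 cases and higher in 3; genes of the ER stress response were lower in 13 of 21 and higher in 3. The mitochondrial chaperone *hsp-60* had 39.3 and 32.7 TPM at day 3 and 216 and 236 TPM at day 1 (-2.75 ± 0.12; adjusted p = 1.36e-10), and *hsp-4*, the ER chaperone BiP, had 293 and 274 TPM at day 3 and 533 and 529 TPM at day 1 (-0.95 ± 0.10; adjusted p = 1.64e-06). The small heat-shock proteins were mixed, 6 higher and 5 lower of 13, and the direction of their majority changed under several settings. Proteasome subunits were lower in 14 of 33 and higher in none. Autophagy genes went against this, with 17 of 27 higher and 1 lower and a median of 0.55. *lgg-1*, the worm Atg8, had 1062 and 1117 TPM at day 3 and 492 and 485 TPM at day 1 (1.04 ± 0.11; adjusted p = 1.31e-06). The autophagy receptor *sqst-1* had 305 and 264 TPM at day 3 and 120 and 99.8 TPM at day 1 (1.28 ± 0.12; adjusted p = 4.69e-07). Lysosomal genes, a list of ATPase subunits and proteases, fell in 25 of 44 cases and rose in 13. By symbol prefix the 2 kinds differed. Of the *vha-* ATPase genes 18 of 20 were lower and 1 higher. Of the *asp-* protease genes 6 of 13 were higher and 4 lower, and of the *cpr-* protease genes 5 of 8 were higher and 3 lower. The most abundant, the aspartyl protease *asp-1*, had 2086 and 1799 TPM at day 3 and 9092 and 8436 TPM at day 1 (-2.28 ± 0.12; adjusted p = 1.66e-09).

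Muscle genes were lower at day 3. Of 41 sarcomere genes, 39 were lower and 1 higher, with a median of -1.59. *unc-54*, body wall muscle myosin, had 264 and 216 TPM at day 3 and 1325 and 1604 TPM at day 1 (-2.70 ± 0.14; adjusted p = 8.47e-10). *act-1*, an actin, had 655 and 621 TPM at day 3 and 4533 and 4958 TPM at day 1 (-2.99 ± 0.11; adjusted p = 4.38e-11), and it shares near-identical sequence with other actins, among which estimated counts can be divided in different ways. The exception was the troponin I gene *tni-4*, with 76.1 and 73.1 TPM at day 3 and 35.5 and 45.4 TPM at day 1 (0.77 ± 0.14; adjusted p = 0.000288). Among 21 basement membrane genes 13 were lower and 2 higher, the type IV collagen gene *emb-9* having 123 and 113 TPM at day 3 and 228 and 288 TPM at day 1 (-1.22 ± 0.12; adjusted p = 8.58e-07). The brush border and intermediate filaments of the intestine were lower in 15 of 16 cases and none was higher. *ifb-2*, an intestinal intermediate filament, had 64.7 and 59.3 TPM at day 3 and 517 and 551 TPM at day 1 (-3.19 ± 0.11; adjusted p = 2.04e-11).

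**Figure D4:**
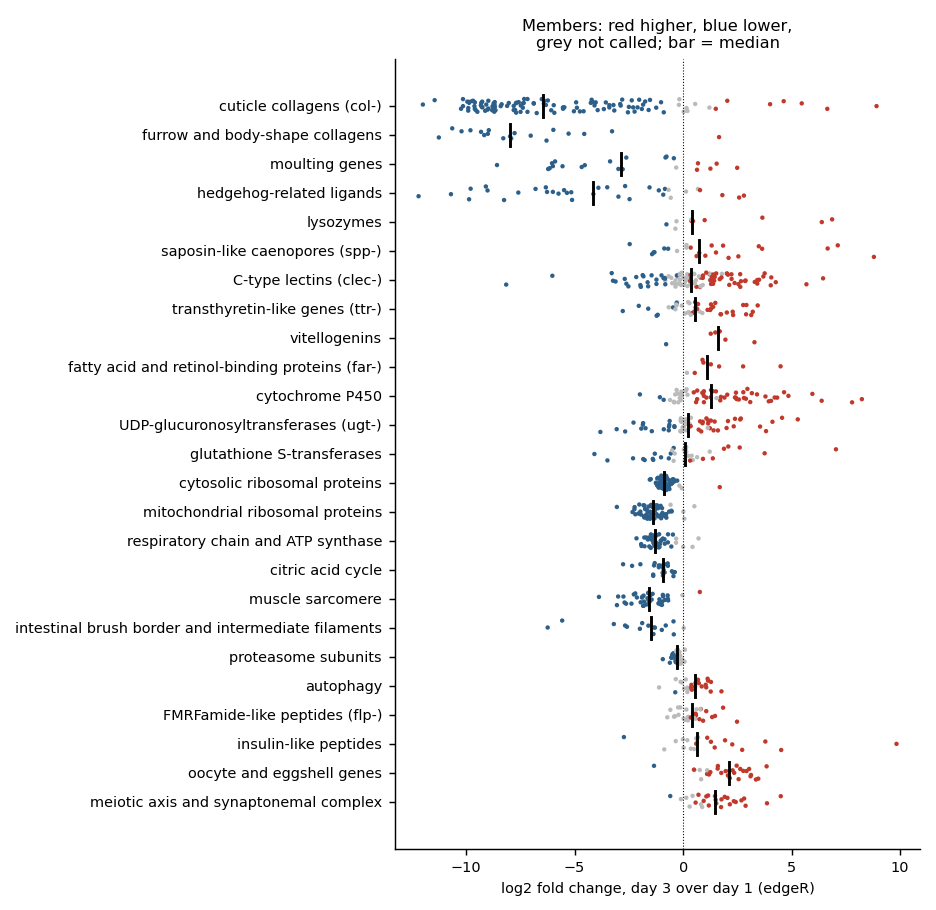
Fitted log2 fold change (day 3 over day 1) of each tested member of the gene lists, red for higher, blue for lower and grey for not called, with a black bar at the median of the list. The collagens and hedgehog-related ligands reach below -10, where fitted values of genes with no counts at day 3 depend on the prior count, while ribosomal and respiratory genes lie close together left of 0 and most oocyte genes right of it.

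Signalling peptides showed more gains than losses. The FMRFamide-like peptide genes rose in 12 of 30 cases and fell in none, and other neuropeptide genes in 19 of 51 cases and fell in 3. *flp-6* had 56.7 and 59.1 TPM at day 3 and 9.20 and 9.85 TPM at day 1 (2.48 ± 0.16; adjusted p = 1.36e-08). Of 39 insulin-like peptide genes, 21 were tested, of which 10 were higher and 1 was lower. *ins-7* had 187 and 168 TPM at day 3 and 36.5 and 47.6 TPM at day 1 (1.93 ± 0.18; adjusted p = 5.41e-07). *ins-19*, at 78.01 and 71.9 TPM at day 3, had no counts at day 1 and was at least 48.0-fold higher. Of 17 genes of TGF-beta signalling, 9 were higher and 2 lower. *lon-1*, which the epidermis expresses and which limits body length, had 387 and 370 TPM at day 3 and 77.8 and 59.2 TPM at day 1 (2.37 ± 0.14; adjusted p = 5.86e-09). *tbh-1*, which makes octopamine, had 630 and 617 TPM at day 3 and 44.8 and 76.8 TPM at day 1 (3.27 ± 0.19; adjusted p = 3.17e-09). It was not typical of its list, neurotransmitter synthesis and vesicular transporters, in which 3 of 15 were higher and 5 lower, with a median of -0.43. *tdc-1*, the tyrosine decarboxylase of the same octopamine pathway, fell most in that list, with 2.78 and 2.38 TPM at day 3 and 6.43 and 5.79 TPM at day 1 (-1.33 ± 0.22; adjusted p = 0.000148).

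Of 17 genes of insulin receptor signalling, 7 were higher and 2 lower, with a median of -0.03. The receptor *daf-2* had 33.8 and 30.6 TPM at day 3 and 15.0 and 19.8 TPM at day 1 (0.66 ± 0.11; adjusted p = 0.000169). The FOXO factor *daf-16*, which acts downstream of it, had 151 and 141 TPM at day 3 and 106 and 111 TPM at day 1 (0.26 ± 0.10; adjusted p = 0.0389), a call that was lost without day 3 replicate 1 (adjusted p = 0.170), without day 3 replicate 2 (0.0749) and without day 1 replicate 1 (0.0968). The Hox factor *lin-39* was not called, with 11.06 and 9.56 TPM at day 3 and 7.83 and 8.75 TPM at day 1 (0.17 ± 0.19; adjusted p = 0.464).

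Genes that the germline normally expresses were low at both ages and higher at day 3. The 14 germline markers summed to 80.0 and 72.2 TPM at day 3 and 19.2 and 22.97 TPM at day 1, against between 1555 and 1672 TPM in *eri-1* animals on day 1. Of these, 12 were called higher and none lower. The oocyte and eggshell list had 24 of 29 higher and 1 lower, and the meiotic axis and synaptonemal complex list 21 of 28 higher and 1 lower. *glh-1*, a germ granule helicase, had 31.1 and 28.5 TPM at day 3 and 6.50 and 8.34 TPM at day 1 (1.91 ± 0.13; adjusted p = 2.36e-08), and it was at 203 ± 6.15 TPM in *eri-1* animals (SD, n = 3). The oocyte maturation gene *oma-2* had 6.60 and 5.92 TPM at day 3 and 0.266 and 0.513 TPM at day 1 (3.85 ± 0.34; adjusted p = 3.24e-07), against 483 ± 4.71 TPM in *eri-1* animals. The vitelline layer genes *perm-2* and *perm-4*, usually assigned to the oocyte, were exceptional in their level. *perm-4* had 8138 and 7830 TPM at day 3 and 592 and 863 TPM at day 1 (3.35 ± 0.16; adjusted p = 4.53e-10), above the 1917 ± 27.2 TPM of *eri-1* animals. Apart from these 2 genes, the 9 other oocyte markers summed to only 27.3 and 25.4 TPM at day 3 and 4.34 and 6.10 TPM at day 1, against between 3587 and 3719 TPM in *eri-1* animals. Of 39 sperm markers only 6 passed the filter (4 higher, none lower), and 11 had no counts in any of the 4 samples. Of the 4 higher, 1 had no counts at day 1 and only 0.514 and 0.437 TPM at day 3. Markers this low at day 1, some oocyte and germline markers included, passed the filter only through later ages. For them a lower call was hardly possible, so the lack of lower calls carries little weight. Rare germ cells and low expression in the soma cannot be told apart here.

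Markers of the other cell types were mixed. Of 9 intestine markers 5 were lower and 2 higher, and of 10 markers of body wall and pharyngeal muscle 8 were lower and 1 higher. Some of these markers were already counted in the sarcomere, brush border and lysosomal lists above, among them *unc-54*, *tni-4*, *ifb-2* and *asp-1*. These 2 counts are therefore not separate from those lists. In the hypodermis and seam list 5 of 8 were lower and none higher. Of the lower genes, *dpy-7*, another furrow collagen and hedgehog-related genes were already counted in the lists above, and the remaining marker fell little. This list is therefore not separate evidence of a fall. Glia markers had 1 of 7 higher and 4 lower, somatic gonad markers 5 of 10 higher and 2 lower, and vulva and uterus markers 1 of 8 higher and 2 lower. Embryo markers had 3 of 6 higher and 1 lower. Neuron markers had 3 of 10 higher and none lower, and the 4 coelomocyte markers were all higher. The summed levels were 3873 and 3400 TPM at day 3 and 12274 and 11616 TPM at day 1 in intestine markers. In neuron markers they were 891 and 886 TPM at day 3 and 475 and 464 TPM at day 1. Both sums rest largely on their most abundant gene. Among intestine markers that was *asp-1*, with values given above. The most abundant neuron marker, a gene of synaptic vesicle release, had 492 and 461 TPM at day 3 and 176 and 170 TPM at day 1. The median log2 fold change was -0.59 for intestine markers and 0.08 for neuron markers.

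**Figure D5:**
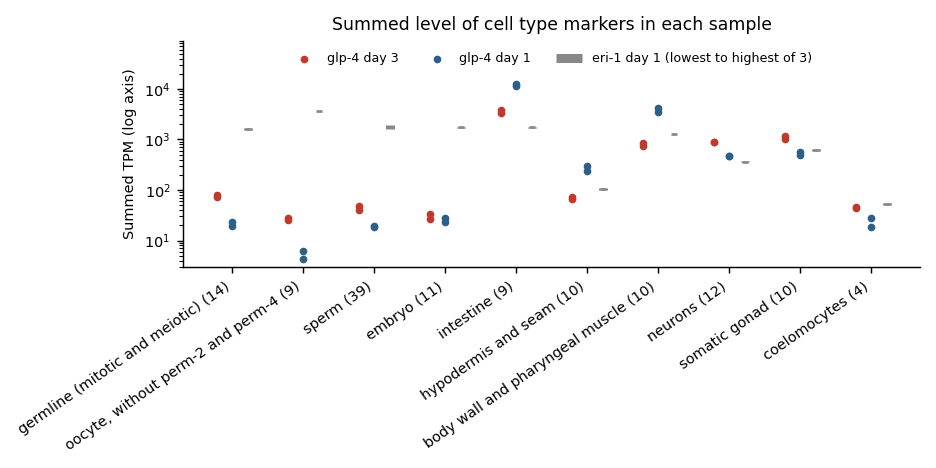
Summed TPM (log axis) of markers of each cell type in the day 3 (red) and day 1 (blue) samples, with grey bars from the lowest to the highest of the 3 eri-1 day 1 samples; the number of markers is in parentheses. Germline markers, sperm markers and the 9 oocyte markers other than perm-2 and perm-4 lie far below the eri-1 samples at both ages and are higher at day 3, and muscle markers and intestine markers are lower at day 3.

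Beyond the lists, all symbol prefixes with at least 8 tested genes were scanned. The highest share of higher genes was at *nspc* (nematode-specific peptide family, group C), of which all 18 tested rows rose, with a median log2 fold change of 3.10, all on the X chromosome. *nspc-1* (8534672 to 8535106) had 341 and 337 TPM at day 3 and 33.9 and 32.002 TPM at day 1 (3.23 ± 0.14; adjusted p = 1.66e-10). *nspc-13* (12357427 to 12357919) had 177 and 206 TPM at day 3 and 8.06 and 6.09 TPM at day 1 (4.64 ± 0.19; adjusted p = 1.24e-10). The 18 rows include *nspc-2* as 2 genes with the same counts, which cannot be told apart. Genes of F-box proteins of the *fbxa*, *fbxb* and *fbxc* kinds rose in 65 of 142 cases and fell in 9.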

How the data were processed

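RNA of whole *glp-4(bn2)* animals was sequenced in 50-base single-end reads and processed by the authors with the Cactus pipeline. The submitters' processing notes name kallisto, edgeR, DiffBind, ce11 and WBcel235 without roles. The deposited tables give, for 19997 genes, estimated counts rounded to whole numbers and TPM values, which the authors scaled by transcript length and to the same total in each sample. No column was left unmapped. Positions come from an annotation of WBcel235.

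The deposited counts of the 6 *glp-4* samples were fitted in one model with edgeR 4.0.16 (R 4.3.3; filterByExpr with a minimum count of 10 and a minimum total of 15, TMM scaling, quasi-likelihood test, contrast day 3 minus day 1), with Benjamini-Hochberg adjustment over all genes tested and a threshold of 0.05. Standard errors are the absolute log2 fold change divided by the square root of F. Bounds use a floor of 3 counts per library, which covers counting error only. The code was tested on simulated counts.

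Genes were named by a rule: the 10 genes that rose and the 10 that fell with the lowest adjusted p (at least 2-fold, ages not overlapping), and from each list its most abundant member, the members that rose and fell most, and defining members; further list members were chosen after their values were seen. The members and lists were chosen with earlier results of these data known. Alternatives used DESeq2 1.42.0 and limma 3.58.1. Sequences and promoter motifs were not analysed here.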

Additional observations from a re-analysis of the deposited data

How the results depend on the processing

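Across 18 alternative settings, 1581 of 1609 values of the 91 named genes kept their direction and their side of the threshold, and 1 reversed: *col-181*, at -0.082 on the log2 scale without day 1 replicate 1 and 0.43 without day 1 replicate 2. Many of these genes were named for a low adjusted p or a large change in these same data, so this stability was partly built in. Counts of list members were less stable. Of 188 such counts, 92 moved past a set ratio to the reported count when a 2-fold change was also required. With at least 10 counts in every sample 36 did, and with limma on log2(TPM + 0.1) 28 did. With at least a 2-fold change also required, 2141 genes were higher and 2014 lower. Leaving out each sample in turn gave between 2772 and 3371 genes higher and between 3035 and 3615 lower; an age with a lone sample is then assumed to vary like the other ages. Fewest calls in those fits came without a day 3 sample. Replicate numbers did not pair the samples (the correlation of deviations between day 3 and day 1 was -0.017), and a fit with the replicate block gave 3546 genes higher and 3685 lower; among the named genes it changed no call but that of *daf-16*. Other settings gave between 2691 and 3861 genes higher and between 2810 and 4086 lower; limma on log2(TPM + 0.1) moved the median of all genes to 0.103. Small heat-shock proteins, histones, ABC transporters, synaptic vesicle release genes, fatty acid desaturases and elongases, astacin proteases, and longevity and stress transcription factors turned the majority of their calls under at least 1 setting. The call for *daf-16* was also lost with DESeq2 (adjusted p = 0.0508), with the replicate block (0.0503), without a filter (0.0725) and in the 4-sample fit (0.0592), and that for *vit-1* with DESeq2 (0.0680) and limma (0.0881 and 0.0967). With 2 samples an age, the spread within an age rests on few values. The planned promoter motif counts were not run.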

Other observations

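Histone genes split by gene rather than as a family, with 30 of 72 tested higher and 29 lower. *his-67* had 114.5 and 155.5 TPM at day 3 and 2.70 and 3.49 TPM at day 1 (log2 fold change 5.26 ± 0.30, SE; adjusted p = 2.93e-09, edgeR), while *his-18* had 54.5 and 46.2 TPM at day 3 and 449 and 300 TPM at day 1 (-3.02 ± 0.22; adjusted p = 3.38e-08). Histone genes have near-identical copies, among which estimated counts can be divided in different ways. The tubulins were lower in 10 of 13 cases, with *tbb-6* as the exception, at 105.5 and 104.7 TPM at day 3 and 6.86 and 7.57 TPM at day 1 (3.69 ± 0.13; adjusted p = 2.10e-11). The *pud* genes, named for proteins up-regulated in *daf-2* insulin receptor mutants, were lower in all 5 cases tested, with a median log2 fold change of -4.34. *pud-3* had 67.7 and 71.5 TPM at day 3 and 2656 and 2140 TPM at day 1 (-5.24 ± 0.18; adjusted p = 1.74e-11).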
